A study of Mus musculus with 90 samples.

Results

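Late-cleared maternal transcripts were taken as those that stood high in the WT oocyte, were still high at the 2c stage and stood low by the 8c stage. They comprise 150 of the 24422 genes counted in single mouse oocytes and embryos. The genes were chosen by a rule on the WT libraries with at least 100000 gene counts. The mean log2(CPM + 1), where CPM is a gene's count per 1000000 gene counts of the library, was computed for each stage. The 8c mean was then subtracted from the smaller of the MII and 2c means, and the 150 highest scores were taken among 24292 genes. Symbols beginning with Zp, Nlrp, Obox, Oog, Fbxw and Hist had been left out. The WT values therefore made the list and are given as a description without a test, whereas the matPlag1KO libraries took no part in the choice.

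The growing oocyte stores mRNA for the time when its own transcription has stopped, and the embryo lives on this store until its genome is activated. Some stored transcripts are removed during meiotic maturation through shortening of their poly(A) tails, and others are removed only after zygotic genome activation, with the help of newly made embryonic products. Adaptors such as BTG4, which bring deadenylases to stored mRNA, are known for their part in this clearance.

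Plag1 encodes a zinc finger transcription factor, and the study asked how embryos develop without the maternal supply of it. WT oocytes and embryos came from WT females, and matPlag1KO ones from Plag1 knockout females, all superovulated, sexually mature and of the CD-1 strain. The oocytes were from unmated females and were picked 21 to 23 h after hCG. Embryos came from matings with WT males and were cultured to the 2c (45 to 47 h) and 8c (71 to 73 h) stages, times that the labels give as hpf. The females lacked Plag1 in the whole body and not in the oocyte alone, whereas matPlag1KO embryos carried the paternal WT allele. The labels name no donor female, so embryos of the same female may be among the replicates and the p-values measure the spread between libraries only. After 12 of 90 libraries had been left out for low complexity, 16 WT and 14 matPlag1KO oocytes, 11 and 11 embryos at 2c and 15 and 11 at 8c remained.

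The kept libraries held 92475 to 2502421 gene counts, with medians from 148473 (WT 2c) to 649899 (matPlag1KO MII), and all 150 members passed the expression filter of the 16511 genes tested. Plag1 itself was detected in 16 of 16 WT oocytes (326 counts) and in 3 of 14 matPlag1KO oocytes (4 counts), a log2 difference of -5.64 ± 0.65 (SE, adjusted p = 1.476e-10). At 2c it was detected in 1 of 11 WT embryos (1 count) and in 9 of 11 matPlag1KO embryos (91 counts). The labels place every sample in 1 of 2 multiplexed libraries, libA and libB, called pools here, under a code such as F5, called its position. The oocyte libraries fell into 2 groups on the first principal component. The 11 that stood apart were 9 WT oocytes, among them all 8 of pool libB, and 2 matPlag1KO oocytes of pool libB. The median of the meiotic kinase gene Mos was 6.18 CPM in these 11 and 539 CPM in the other 19 oocytes. Genotype, pool and this difference cannot be told apart in the WT oocytes of pool libB, and MII results are given with and without the 11 libraries. Summed CPM of 14 cumulus and granulosa cell markers had a median of 21.8 in the oocytes of WT and 19.2 in those of matPlag1KO. The 2c medians were 6.58 and 23.6, and the 8c medians 0.00 and 2.77.

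The list was led by the Tcl1 family, 6 genes side by side on chromosome 12 (mm9 chr12:106385243-106460947). Their promoters are shown because the Tcl1b paralogs share stretches of bases that occurred in no other window. The windows span 250 bases before to 50 bases after the transcription start in RefSeq annotation (GRCm38.p6), and 121 of the 150 members had such a window. The sequences below are the 90-base parts around the shared stretches, 5′ to 3′ on the plus strand, with the bases common to all 5 genes in runs of 25 and 20 in capitals.
Tcl1b1: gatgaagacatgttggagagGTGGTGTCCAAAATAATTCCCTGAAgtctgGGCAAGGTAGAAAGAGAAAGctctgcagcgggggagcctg
Tcl1b2: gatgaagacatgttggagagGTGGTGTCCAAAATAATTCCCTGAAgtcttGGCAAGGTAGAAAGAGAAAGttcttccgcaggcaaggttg
Tcl1b3: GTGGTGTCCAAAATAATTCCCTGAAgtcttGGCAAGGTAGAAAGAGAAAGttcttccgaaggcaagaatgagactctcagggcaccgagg
Tcl1b4: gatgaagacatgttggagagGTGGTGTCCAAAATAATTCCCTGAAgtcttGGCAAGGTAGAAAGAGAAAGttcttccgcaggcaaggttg
Tcl1b5: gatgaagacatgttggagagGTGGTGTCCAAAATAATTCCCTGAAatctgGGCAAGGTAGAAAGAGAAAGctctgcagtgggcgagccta
In GRCm38.p6 these stretches lie at chr12:105159514-105159603 (Tcl1b1), chr12:105146804-105146893 (Tcl1b2), chr12:105190795-105190884 (Tcl1b3), chr12:105202193-105202282 (Tcl1b4) and chr12:105176168-105176257 (Tcl1b5). Both runs, and 2 further shared runs of 25 and 22 bases, were found in these 5 genes and in no other gene among 32851 windows. How far reads of these paralogs can be told apart was not measured, and the values of single Tcl1b genes are best read together.

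Another promoter feature that was compared was the element read by NOBOX, a homeobox factor of the growing oocyte. The letters, TAATTG or TAATTA on either strand, stood in the windows of 27 of 121 members (22.3%), against 9.49% of the 12355 tested genes with a window and 14.2% of all 27025 genes with a window. A match is a description of the letters and was not tested as a binding site. Members that carry it are shown with the element in capitals, each written on the strand of its gene. The 5 shown are Accsl and Wee2, which are among the 12 highest scores, and 3 others that are described with their values further on.
Accsl: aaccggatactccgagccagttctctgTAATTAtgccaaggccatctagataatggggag
Wee2: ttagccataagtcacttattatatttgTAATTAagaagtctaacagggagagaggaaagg
Cpa1: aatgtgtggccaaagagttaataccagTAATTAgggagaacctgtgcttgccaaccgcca
Omt2b: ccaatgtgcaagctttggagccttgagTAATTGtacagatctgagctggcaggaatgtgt
Pcdh15: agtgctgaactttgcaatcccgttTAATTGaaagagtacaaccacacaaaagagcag
The positions in GRCm38.p6 are chr2:93869198-93869257 on the minus strand (Accsl), chr6:40442750-40442809 on the plus strand (Wee2), chr6:30638978-30639037 on the plus strand (Cpa1), chr9:78327909-78327968 on the plus strand (Omt2b) and chr10:73821617-73821673 on the plus strand (Pcdh15). The CCAAT box was present in 52.9% of the members' windows and 42.7% of those of tested genes, and the TATA box (TATAAA) in 12.4% and 9.87%. Over all genes with a window the shares were 41.1% and 15.7%. The E-box CACGTG was present in 9 of 121 members' windows (7.44%) and 1356 of 12355 tested ones, the looser CANNTG, which takes in CACGTG, in 80.2% and 70.2%, and CGCG in 52.1% and 66.6%. Over all genes CGCG was present in 40.6%, CACGTG in 8.09% and CANNTG in 75.0%. The PLAG1 consensus was found in 24.0% of the members' windows, in 30.0% of those of tested genes and in 21.2% of all.

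In the WT libraries that chose them, the members' mean log2(CPM + 1) had a median over genes of 8.17 at MII (range 5.16 to 12.85), 7.40 at 2c (5.20 to 13.27) and 1.25 at 8c (0.00 to 5.58). From MII to 2c the WT mean was lower for 117 members and higher for 33, with a median difference of -0.72. The scores ran from 8.62 for Tcl1b3 to 5.12 for Lsm14a, the last gene taken. Just inside the threshold stood Prlr, Lpin2, Gm5434, Oas1c and Lsm14a (5.16, 5.16, 5.15, 5.14 and 5.12), and just outside it Ptprb, Rimkla, Asb4, Taf9b and Adm2 (5.11, 5.11, 5.11, 5.11 and 5.07). The threshold thus cuts through a continuous series of values. The members spread over the genome, but 34 of them lay within 500 kb of another member, in 13 groups that include Trim75, Trim60 and Trim61 on chromosome 8 and Gnb5, Bcl2l10, Scg3 and Bmp5 on chromosome 9.

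As a share of all gene counts, the members together made up 9.88 to 18.4% of WT oocyte libraries (median 13.3%) and 10.2 to 15.5% of matPlag1KO oocyte libraries (median 12.4%). At 2c the share was 4.87 to 14.8% in WT (median 8.52%) against 7.95 to 18.5% in matPlag1KO (median 13.5%), so that the ranges overlapped. At 8c it was 0.0379 to 0.186% in WT (median 0.0823%) against 0.0951 to 0.418% in matPlag1KO (median 0.174%). Against the spike-in RNA, which was added in equal amounts and serves as a fixed reference, matPlag1KO oocytes held 6.29 to 18.1 member counts per spike-in count (median 8.05). The value was 1.05 to 3.91 in matPlag1KO 2c embryos (median 2.07) and 0.0293 to 0.166 in 8c embryos (median 0.0676), and the 3 ranges did not overlap. Each library is a whole embryo, so fewer cells holding a transcript and less of it in every cell cannot be told apart.

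**Figure D1:**
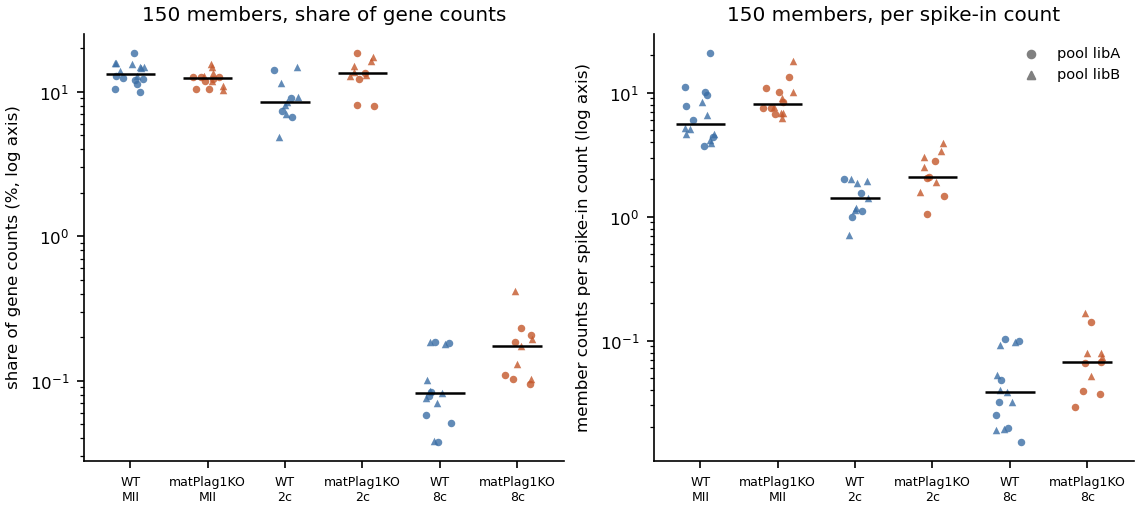
Share of gene counts held by the 150 members (percent, log axis) and their counts per spike-in count (log axis) in each kept library, by stage and genotype, with circles for pool libA, triangles for pool libB and a line at the group median. From MII to 2c the median share goes from 13.3% to 8.52% in WT and from 12.4% to 13.5% in matPlag1KO, and the share is below 0.5% in every 8c library.

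The function lists describe the members and support nothing, since the rule takes genes high in the oocyte and the lists, made from symbols, were drawn up with earlier results known. The oocyte and maternal-effect genes held 16 members (10.7%) against 0.357% of tested genes, and all 6 tested Tcl1 genes were members. Ubiquitin and proteolysis genes made up 7.33% of the members and 3.02% of tested genes, signalling genes 8.00% and 3.75%, and genes without a descriptive name 15.3% and 10.3%. No member was in the trafficking list (2.25% of tested genes). The list of transcription factors and zinc fingers goes by the start of a symbol and took in only Creb3l4 and Zfp68, missing members such as Sebox, Meis2, Tbx19 and Esr2, so that no share is read from it. The antisense transcripts Uchl1os and Arhgap20os and the gene Smco4 are in such lists by the beginning of their symbol only.

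Whether the pattern recurs in embryos that the rule did not see was asked of the matPlag1KO libraries, with the spike-in total as library size. From MII to 2c, 136 members fell and 1 rose, at backgrounds of 50.3% (lower) and 13.5% (higher) of all tested genes, with a median log2 change of -2.29 (4.87-fold lower) beside -1.42 over all tested genes. Scaled by TMM, which compares each transcript with the rest of the library, 55 members were lower and 18 higher at backgrounds of 19.3% and 29.1%, and the median was -0.48 beside 0.14 over all genes. Without the oocytes that stood apart the TMM fit called 56 lower and 16 higher (backgrounds 21.5% and 27.8%), with a median of -0.55 beside 0.04. Of the 136 members called lower per spike-in RNA, 40 had a positive change under TMM, and 6 of these were called higher (D6Ertd474e, Sebox, Cox6b2, 2010107G23Rik, Prdx2 and Cdr2). The number called thus differed between falls per spike-in RNA and falls relative to other transcripts. The study's methods list an anchored oligo(dT) primer. Loss of a transcript and shortening of its poly(A) tail therefore cannot be told apart in these counts.

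From 2c to 8c, 149 of 150 members fell in matPlag1KO (background 19.5%), with a median log2 change of -4.62 (24.5-fold lower) beside 0.30 over all tested genes, and under TMM all 150 fell (background 30.3%). The remaining member was Arhgap20os, a transcript antisense to Arhgap20, with a log2 change of -1.29 ± 0.62 (adjusted p = 0.076). Over the whole interval from MII to 8c all 150 fell (background 45.2%), with a median of -6.89 (119-fold lower), and under TMM without the oocytes that stood apart all 150 also fell (background 35.0%). For 138 members every matPlag1KO 2c library lay above every matPlag1KO 8c library, as for 5.6% of tested genes. The score computed in matPlag1KO was above 0 for every member (3.27 to 8.64), and 95 members were among its 150 highest and 125 among its 300 highest.

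**Figure D2:**
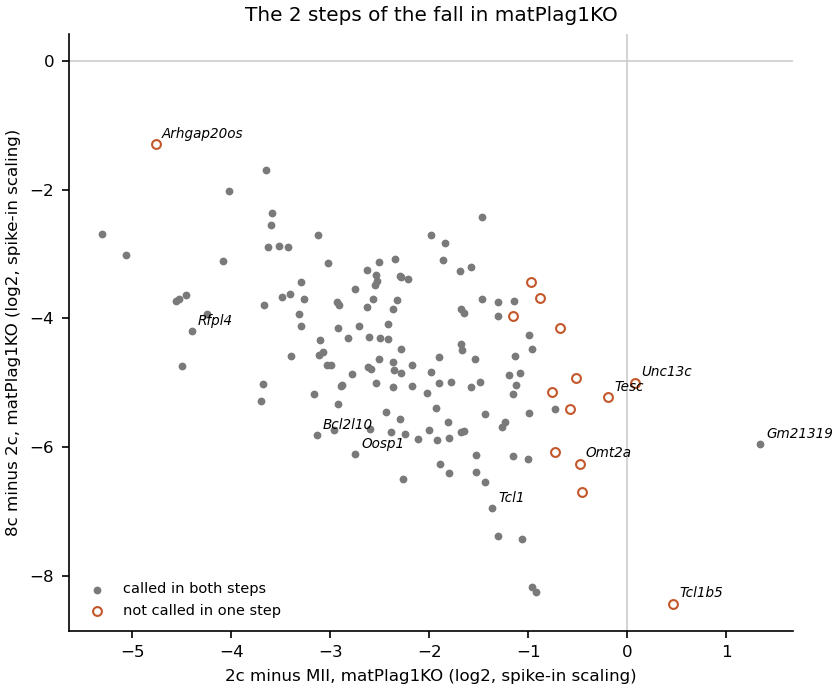
Log2 change of each member in matPlag1KO from MII to 2c (x axis) and from 2c to 8c (y axis) under spike-in scaling, where both axes share the 2c libraries. All 150 members lie below 0 on the y axis and 147 lie below 0 on the x axis, with medians of -2.29 and -4.62.

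The Tcl1 family encodes co-activators of AKT kinases, and Tcl1 supports the early cleavages. In matPlag1KO, Tcl1 had 2763 to 7952 CPM in oocytes (median 6153), 4431 to 12955 at 2c (median 9882) and 8.82 to 64.4 at 8c (median 28.0). Tcl1b1 had 1599 to 5188 CPM (median 3086), 2426 to 10273 (median 6530) and 3.39 to 18.9 (median 7.05) at the same stages. No 8c library came near any 2c library. All 6 genes fell from 2c to 8c (background 19.5%), with a median log2 change of -7.80. The extremes were Tcl1 (-6.94 ± 0.46) and Tcl1b5 (-8.43 ± 0.62). From MII to 2c, 5 of 6 fell per spike-in RNA (median -1.01, background 50.3%), and Tcl1b5 had 0.47 ± 0.39 (adjusted p = 0.295). Relative to other transcripts (TMM) the other 5 had changes of 0.30 to 0.70, none of them called, and Tcl1b5 rose by 2.16 on the log2 scale over this step.

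Secreted factors, receptors and oocyte secreted proteins comprised 19 members. Per spike-in RNA 17 fell from MII to 2c (median -2.29, background 50.3%) and 19 from 2c to 8c (median -4.73, background 19.5%). Under TMM 9 were lower and 2 higher over the former step (backgrounds 19.3% and 29.1%). Oosp1, an oocyte secreted protein, had 2397 to 8915 CPM in matPlag1KO oocytes (median 5779), 2310 to 5234 at 2c (median 3345) and 7.77 to 38.8 at 8c (median 18.1). Bmp15, the oocyte growth factor of the TGF-beta family that acts on granulosa cells, had medians of 1400, 1104 and 9.65 CPM and log2 changes of -2.29 ± 0.56 and -5.57 ± 0.69 over the 2 steps. Tgfb2, another ligand of that family, had 540 to 1426 CPM in oocytes (median 916), 160 to 655 at 2c (median 351) and 2.19 to 55.5 at 8c (median 7.10). Per spike-in RNA both ligands fell at each step, whereas under TMM Bmp15 had a change of -0.51 from MII to 2c (adjusted p = 0.334). The receptor tyrosine kinase gene Kit, which serves oocyte growth, had medians of 389, 445 and 8.54 CPM. Prlr, the prolactin receptor, was among the 13 members not called between MII and 2c (-0.58 ± 0.41, adjusted p = 0.216).

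Regulators of meiosis, the cell cycle and apoptosis comprised 11 members. They all fell at both steps per spike-in RNA (medians -2.41 and -4.63, backgrounds 50.3% and 19.5%). From MII to 2c under TMM, 3 were lower and 1 higher (backgrounds 19.3% and 29.1%). Wee2, the oocyte kinase that holds CDK1 in check, had 187 to 954 CPM in matPlag1KO oocytes (median 253), 148 to 667 at 2c (median 378) and 0 to 10.2 at 8c (median 1.93). Btg4, an adaptor that brings the CCR4-NOT deadenylase to maternal mRNA, had 1657 to 4178 CPM (median 3071), 697 to 3835 (median 1267) and 0 to 47.3 (median 8.54), with log2 changes of -2.96 ± 0.40 and -5.73 ± 0.49. Bcl2l10, a Bcl2 relative of the oocyte, had medians of 5883, 1709 and 13.2 CPM. Spin1, a histone reader associated with the meiotic spindle, had medians of 4398, 5807 and 44.4 CPM, and its level per spike-in RNA fell by 1.81 ± 0.37 from MII to 2c. Mapk3 (ERK1), Fmn2, an actin nucleator of spindle positioning, and Tubg2, a gamma-tubulin, had log2 changes of -4.86 ± 0.66, -3.13 ± 0.66 and -4.31 ± 0.55 from 2c to 8c.

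Genes of RNA binding, translation and the antiviral response numbered 6. Eif4e1b, the oocyte form of the cap-binding protein eIF4E, had 443 to 2666 CPM in matPlag1KO oocytes (median 1076), 90.6 to 2444 at 2c (median 1118) and 0 to 40.6 at 8c (median 5.79). Its 2c libraries spread more widely than its oocytes. Rbm38, an RNA-binding regulator of mRNA stability, was not called between MII and 2c (-1.15 ± 0.58, adjusted p = 0.072) and fell by 3.97 ± 0.67 afterwards. Oas1c, of the oligoadenylate synthetase family, had the largest fall of all members from MII to 2c, with a log2 change of -5.31 ± 0.52, and medians of 1112, 130 and 9.34 CPM. Lsm14a, a component of RNA granules, had changes of -1.84 ± 0.39 and -2.83 ± 0.46.

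The ubiquitin group held 10 members, which all fell at both steps per spike-in RNA (medians -2.63 and -4.65, backgrounds 50.3% and 19.5%). Only 4 were lower from MII to 2c under TMM (background 19.3%). Trim60 and Trim61, RING finger proteins whose gene models overlap on the same strand so that their counts cannot be kept apart, had medians of 3255 and 2640 CPM in oocytes of matPlag1KO. At 2c the medians were 1285 and 987 CPM, and at 8c 31.7 and 20.3 CPM. Uchl1, a deubiquitinating enzyme abundant in oocytes and neurons whose gene model overlaps the member Uchl1os on the opposite strand, so that their counts may mix, had 1803 to 5084 CPM (median 2705), 629 to 4358 (median 2785) and 1.93 to 83.8 (median 12.96). Rfpl4, an oocyte RING finger protein, had log2 changes of -4.40 ± 0.47 and -4.20 ± 0.49, with medians of 3479, 280 and 11.6 CPM. The estimates for Rfpl4 were of like size at the 2 steps, and those for Uchl1 were -2.37 ± 0.50 and -5.07 ± 0.59.

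Transcription and chromatin genes numbered 16. Per spike-in RNA 14 fell from MII to 2c (median -2.33, background 50.3%) and 16 from 2c to 8c (median -3.69, background 19.5%). Under TMM 6 were lower and 2 higher over the former step (backgrounds 19.3% and 29.1%), Sebox among the higher (0.86 ± 0.34). Sebox, a maternal-effect homeobox gene, had 100 to 640 CPM in matPlag1KO oocytes (median 227), 255 to 1435 at 2c (median 608) and 0 to 9.46 at 8c (median 3.01). Smarca2, the BRM ATPase of SWI/SNF remodelling complexes, had 151.5 to 380 CPM (median 263), 173 to 768 (median 280) and 0 to 46.7 (median 17.8), and its change from 2c to 8c was -3.10 ± 0.41. Zbed3, which binds axin in Wnt signalling, had medians of 4178, 3831 and 44.1 CPM. The bromodomain gene Brdt had log2 changes of -2.22 ± 0.42 and -3.39 ± 0.47. Cbx2, a Polycomb subunit, and Tbx19, a T-box factor known from the pituitary, were not called between MII and 2c (-0.88 ± 0.51 and -0.98 ± 0.52).

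Small G protein, G protein and kinase signalling held 13 members. Per spike-in RNA 12 fell from MII to 2c (median -2.61, background 50.3%) and 13 from 2c to 8c (median -3.94, background 19.5%). The former step had 7 lower and 1 higher under TMM (backgrounds 19.3% and 29.1%). Spry4, a feedback inhibitor of receptor tyrosine kinase signalling, had 143 to 2388 CPM in matPlag1KO oocytes (median 681), 398 to 2337 at 2c (median 1473) and 0 to 647 at 8c (median 16.6). The 8c values were uneven, since 2 of 11 libraries had over 300 CPM and the other 9 were below 35 CPM. Rgs17, a regulator of G protein signalling, had log2 changes of -4.25 ± 0.43 and -3.94 ± 0.51. Tesc, a calcium-binding protein, was not called between MII and 2c (-0.20 ± 0.31).

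Neuronal, adhesion and vesicle proteins held 13 members. Per spike-in RNA 11 fell from MII to 2c (median -1.80, background 50.3%) and 13 from 2c to 8c (median -4.14, background 19.5%). From MII to 2c 4 were lower and 2 higher under TMM (backgrounds 19.3% and 29.1%). Unc13c, a vesicle priming protein, and Intu, a planar cell polarity effector of ciliogenesis, were not called between MII and 2c (0.08 ± 0.32 and -0.68 ± 0.34), and then fell (log2 changes of -4.997 ± 0.41 and -4.14 ± 0.41). Metabolism and transport held 19 members, which all fell at both steps per spike-in RNA (medians -2.49 and -4.60, backgrounds 50.3% and 19.5%). Under TMM, 9 of the 19 were lower from MII to 2c (background 19.3%) and 2 were higher (background 29.1%). The latter were Cox6b2 (0.94 ± 0.29) and Prdx2 (0.72 ± 0.30). Accsl, an ACC synthase-like gene, had 677 to 2243 CPM in matPlag1KO oocytes (median 1154), 544 to 1349 at 2c (median 867) and 0 to 52.7 at 8c (median 10.2). Prdx2, a peroxiredoxin, had 534 to 4795 CPM (median 927), 1204 to 5364 (median 2912) and 7.77 to 37.0 (median 24.1).

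The 37 members with no role given here, mostly genes without a descriptive name, included the single member that rose from MII to 2c per spike-in RNA. This gene, Gm21319, had 59.2 to 184 CPM in matPlag1KO oocytes (median 102), 348 to 2070 at 2c (median 1200) and 0 to 16.9 at 8c (median 6.02), a log2 rise of 1.35 ± 0.37 (adjusted p = 0.00115). Its 2c libraries lay above every oocyte. The gene model overlaps Gm10436, Gm5662, Gm5039 and Gm7104 on the opposite strand, so that its counts may hold reads of those genes. Counts alone do not tell stored RNA from RNA newly made at 2c. The neighbouring oocyte genes Omt2a and Omt2b had matPlag1KO medians of 4016 and 2861 CPM at MII. Their 2c medians were 10273 and 7138 CPM and their 8c medians 54.4 and 24.7 CPM. Neither was called between MII and 2c (-0.48 ± 0.25 and -0.45 ± 0.25), and both fell from 2c to 8c (-6.25 ± 0.34 and -6.70 ± 0.34). C86187 had medians of 1534, 5094 and 16.9 CPM.

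**Figure D3:**
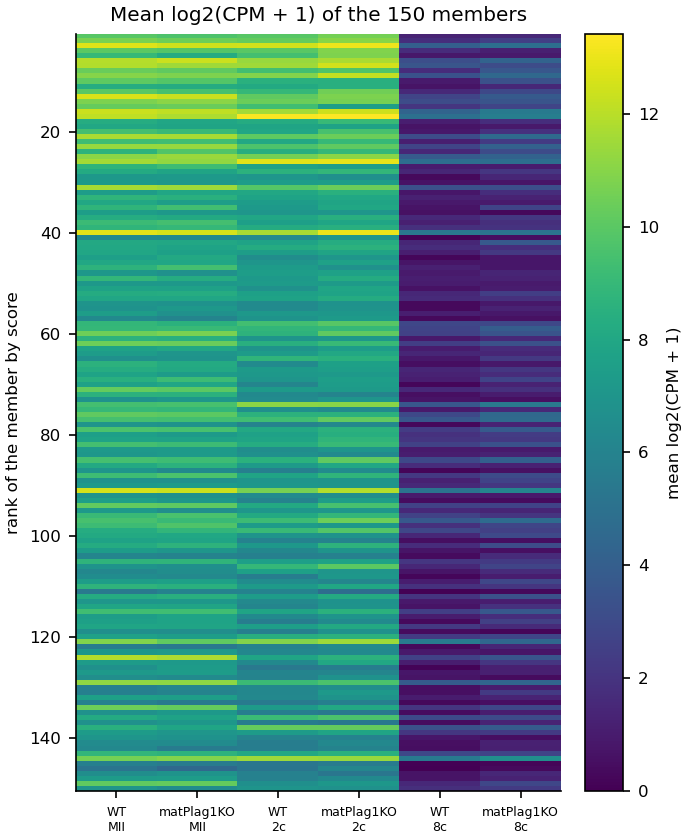
Mean log2(CPM + 1) of the 150 members (rows, ordered by score) in the 6 groups of WT and matPlag1KO libraries. The members are bright at MII and 2c and dark at 8c in both genotypes, with medians over genes of 7.99, 7.87 and 1.94 in matPlag1KO.

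The comparison of the genotypes asks whether the members differ in embryos without maternal Plag1, and used TMM factors in edgeR. The WT libraries had chosen the members high at MII and 2c and low at 8c. This choice pulls the difference matPlag1KO minus WT down at MII and 2c and up at 8c, and pulls the change of that difference from 2c to 8c up. Values within each pool are given, but the WT libraries of both pools chose the members, so that the pull stays in these values. For that reason, members chosen in the WT libraries of one pool and read in the other are also given at single stages. No such reading in the other pool was made for the change between 2c and 8c. Libraries at the same position of the 2 pools also correlated in their deviations from group and pool means, with r above 0.1 in 12 of 12 pairs at 8c and 6 of 8 at 2c. The pools may thus not be independent, and a reading in the other pool may keep part of the pull. Calls are therefore given a second time with such libraries summed to 1 sample per position, which left 9 WT and 7 matPlag1KO samples at 2c and 8 and 6 at 8c.

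In MII oocytes no member was called higher or lower in matPlag1KO, at backgrounds of 0.309% and 0.472% of tested genes in edgeR. At an unadjusted p under 0.05 there were 9 of 150, beside 10.2% of all tested genes, and DESeq2 with the same scaling also called none. The median log2 difference was -0.10, with 56 members positive, and turned with spike-in totals to 0.34 (134 positive, all tested genes 0.30). Within pools libA and libB the medians were 0.01 (76 positive) and -0.12 (59 positive). Members chosen in the WT libraries of libA and read in libB had a median of -0.09 (64 positive), and the reverse gave 0.05 (81 positive). Without the 11 oocytes that stood apart no member was called and the median was 0.02. The positions pair oocytes of opposite genotype across the 2 pools, and when a replicate block for the position and a term for the pool were fitted, 14 members were higher (background 3.99%) and 10 lower (background 0.915%). Among them Cpa1, a carboxypeptidase, was higher by 0.99 ± 0.11 and Rspo2, an enhancer of Wnt signalling, by 0.69 ± 0.12. Oosp1 was higher by 0.37 ± 0.07 and Bmp15 by 0.32 ± 0.09, while the differences were -0.67 ± 0.12 for Tcl1b5, -0.57 ± 0.09 for Prdx2 and -0.34 ± 0.11 for D6Ertd474e. All 24 had the same sign in the fit of all oocytes without the block. Without the 11 oocytes, and without the block, none of the 24 was called and 6 turned sign, among them Oosp1 (-0.13), Bmp15 (-0.37) and Prdx2 (0.38), and Cpa1 was at 0.25. The summed oocyte markers had medians of 3074 CPM in WT and 6849 CPM in matPlag1KO oocytes. Gdf9 and Mos, both among these markers, had medians of 448 and 6.18 CPM in the 11 oocytes that stood apart, 9 of them WT. In the other 19 oocytes the medians were 4159 and 539 CPM. The sums are not given without the 11, and the part of these markers at MII was not tested. Cpa1 had 165 to 1480 CPM in WT oocytes (median 324) and 241 to 1540 in matPlag1KO oocytes (median 1008), ranges that overlapped almost wholly.

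At 2c, 117 of 150 members had a positive log2 difference, with a median of 0.39 (1.31-fold) beside 0.12 over all tested genes. In edgeR 4 of 150 were called higher (background 2.3%) and 1 lower (background 2.62%). The number called higher was not stable. It was 12 without WT replicate 5 (background 2.95%), 10 without WT replicate 11 (background 2.42%) and 9 in pool libB alone (background 0.989%). DESeq2 called 13 (background 2.37%) and edgeR with median-ratio factors 17 (background 4.37%). With positions summed it was 2, D6Ertd474e and Ncald (background 0.485%). Scaled to spike-in RNA, 134 were positive with a median of 0.60 beside 0.28 over all genes. Within pool libA the median was 0.22 (102 positive) and within pool libB 0.42 (121 positive). Members chosen in the WT libraries of pool libA and read in pool libB had a median of 0.70 (128 positive, all tested genes 0.11), and the reverse gave 0.39 (116 positive, all tested genes 0.00). At this stage matPlag1KO embryos also had higher summed cumulus markers (median 23.6 against 6.58 CPM), with Amh, Inha, Cyp11a1, Ptx3 and Lum at 0 in both genotypes, and higher oocyte markers (1665 against 943 CPM), a list of 5 genes that includes the member Bmp15. The median of 6 markers of the 2c embryo was 562 CPM in matPlag1KO against 272 CPM in WT, with Tcstv1 and Tcstv3 at 0 in both, and that of 6 markers of the 8c embryo 153 against 230 CPM. The ranges of the 2 genotypes overlapped for each of these lists. In matPlag1KO and WT they were 0 to 43.1 and 0 to 35.4 CPM for cumulus markers and 642 to 6779 and 636 to 1751 CPM for oocyte markers. For 2c markers they were 209 to 714 and 161 to 1148 CPM, and for 8c markers 74.4 to 354 and 70.8 to 482 CPM. The part of the markers in the result was not tested.

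D6Ertd474e, a gene of unknown function on chromosome 6, had 152 to 1067 CPM in WT 2c embryos (median 550) and 898 to 2941 in matPlag1KO (median 1438), with little overlap. The log2 difference was 1.36 ± 0.30 (adjusted p = 0.00321). Ncald, a neuronal calcium sensor, had 26.5 to 120 CPM in WT (median 76.9) against 49.4 to 411 in matPlag1KO (median 207), a difference of 1.49 ± 0.35 (adjusted p = 0.00516). These were the 2 calls at 2c that held whichever single library was left out.

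Bmp15 had 159 to 963 CPM in WT 2c embryos (median 427) and 293 to 6120 in matPlag1KO (median 1104), a log2 difference of 1.83 ± 0.46 (adjusted p = 0.011). The matPlag1KO range rested on 2 high libraries, replicates 8 and 2, both of position D2, with 6120 and 4530 CPM, and without replicate 8 the difference was 1.40 (adjusted p = 0.068). Cdo1, cysteine dioxygenase, had 26.5 to 276 CPM (median 92.7) and 132 to 828 CPM (median 254), a difference of 1.42 ± 0.39 (adjusted p = 0.0199). Without matPlag1KO replicate 12 it was 1.13 (adjusted p = 0.074).

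Arhgap20os was the single member lower at 2c, with 350 to 1048 CPM in WT (median 688) against 16.5 to 495 in matPlag1KO (median 216), a log2 difference of -1.63 ± 0.50 (adjusted p = 0.0389). This call was lost in 7 of 22 refits that each left out a library, where the highest adjusted p was 0.069. Its gene model lies opposite to Arhgap20, and whether the counting used strand is not given in the sources used here. Tcl1b5, with 182 to 1991 CPM in WT (median 736) against 825 to 2639 in matPlag1KO (median 1937), had a difference of 1.13 ± 0.37 that missed the threshold (adjusted p = 0.055). All 6 Tcl1 genes had positive differences at 2c, with a median of 0.57, and none was called.

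**Figure D4:**
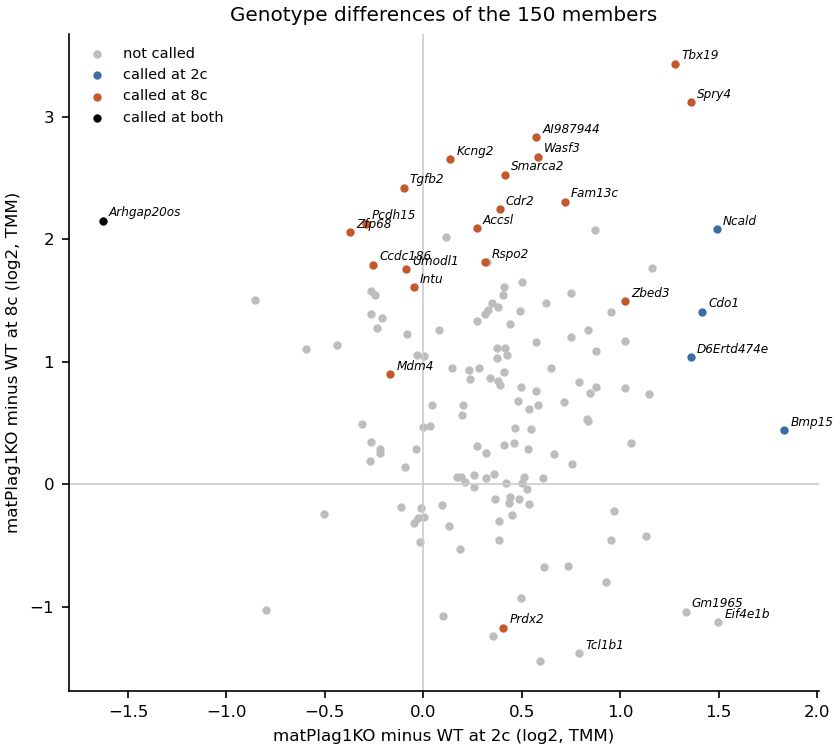
Log2 difference matPlag1KO minus WT (TMM) of each member at 2c (x axis) and 8c (y axis), with the members called at either stage marked. Most members lie right of 0 at 2c (117 of 150) and above 0 at 8c (115 of 150), the direction at 8c being also the one toward which the choice of members pulls.

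At 8c, where few counts of any member remained, 115 members had a positive log2 difference, with a median of 0.74 beside 0.00 over all tested genes. For the list that the rule gives on counts per spike-in count, which shares 98 of the 150 members, the median was 0.28. In edgeR 19 of 150 were called higher (background 1.21%) and 1 lower (background 0.527%). Scaled to spike-in RNA 9 were higher (background 0.551%) and none lower, with a median of 0.71. Within pools libA and libB 2 and 6 were higher (backgrounds 0.0265% and 0.251%). With positions summed 6 were higher (background 0.133%) and none lower, Smarca2, Tgfb2, Accsl, Fam13c, AI987944 and Spry4, with a median of 0.69. The other 14 calls were lost in that fit, and none of them changed sign. Low WT 8c values chose the members, which pulls toward this direction. Members chosen in the WT libraries of pool libA and read in pool libB had a median of 0.60 (113 positive, all tested genes 0.07), and the reverse gave 0.38 (108 positive, all tested genes 0.00). Within pools libA and libB the medians were 0.51 and 0.77. Each of the 25 calls at 2c and 8c had the same sign in both pools. The calls were made on both pools together, which favours this, so that nothing is read from it. Cumulus markers summed to medians of 0.00 CPM in WT and 2.77 CPM in matPlag1KO at 8c, with 10 of 14 at 0 in each group. Oocyte markers had medians of 41.5 and 66.0 CPM and markers of the 8c embryo 318 and 161 CPM, in WT and matPlag1KO. The part of these markers was not tested.

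Smarca2 had 0 to 10.4 CPM in WT 8c embryos (median 1.75) and 0 to 46.7 CPM in matPlag1KO (median 17.8). That is 20 counts in 15 WT libraries and 70 counts in 11 matPlag1KO libraries, a ratio of 6.28 per count sequenced (95% counting interval 3.77 to 10.9). The fitted log2 difference was 2.53 ± 0.38 (adjusted p = 4.09e-06). Of the members called at 2c or 8c, Smarca2, Fam13c and Arhgap20os overlap gene models on the opposite strand, Ccdc186 and Zbed3 on the same strand and Bmp15 and Ncald on both, so that their counts may hold reads of those genes. The groups overlapped, with 1 matPlag1KO embryo at 0 and 7 above every WT embryo.

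Tgfb2 had 0 to 8.87 CPM in WT (median 0) and 2.19 to 55.5 CPM in matPlag1KO (median 7.10), with at least 1 count in all 11 matPlag1KO embryos and in 7 of 15 WT embryos. Its log2 difference was 2.42 ± 0.43 (adjusted p = 0.000229). Accsl had medians of 2.08 and 10.2 CPM and a difference of 2.09 ± 0.37 (adjusted p = 0.000205). Fam13c, with 13 and 44 counts, differed by 2.31 ± 0.49 (adjusted p = 0.00328). These genes, with Smarca2, Intu, Spry4 and AI987944, were called in all 26 refits that left out a single 8c library.

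Intu had enough counts for a firmer value, 111 in WT and 212 in matPlag1KO, with 1.69 to 37.6 CPM in WT (median 9.95) and 18.9 to 107 CPM in matPlag1KO (median 46.7). Its log2 difference was 1.61 ± 0.34 (adjusted p = 0.00289), and 1.56 ± 0.44 with positions summed (adjusted p = 0.114). Mdm4, an inhibitor of p53 with 427 and 460 counts, had medians of 41.9 and 95.2 CPM and a difference of 0.90 ± 0.25 (adjusted p = 0.0395), which was lost in 15 of the 26 refits. Spry4 had 0 to 26.2 CPM in WT (median 8.87) and 0 to 647 CPM in matPlag1KO (median 16.6), a difference of 3.12 ± 0.55 (adjusted p = 0.000163). Its fit rested on replicates 12 and 5 of matPlag1KO, both of position F5, with 647 and 311 CPM, and without replicate 12 the difference was 2.12 (adjusted p = 0.0202). No refit left out both, and with positions summed they form 1 sample that stays in the fit. Outside position F5 the matPlag1KO values were 0 to 34.1 CPM, beside the 0 to 26.2 CPM of WT.

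Of the 20 calls at 8c, 7 held in every refit. Most often lost were Prdx2, Cdr2 (in 19 of 26 refits), Pcdh15 (18), Zbed3 (17), Mdm4, Umodl1 (12), Rspo2 (11) and Ccdc186 (6), and the others in 1 to 3. The matPlag1KO 8c replicate 12 held the highest share of member counts of its group, 0.418%, and moved several estimates. Without it Arhgap20os, 2.15 ± 0.52 in the full fit (adjusted p = 0.0139), was 1.44 (adjusted p = 0.148). Zbed3 went from 1.496 ± 0.43 (adjusted p = 0.047) to 0.85 (adjusted p = 0.354), and Tbx19 from 3.44 ± 0.73 (adjusted p = 0.00328) to 2.60 (adjusted p = 0.055). Umodl1, a uromodulin-like gene, and Kcng2, a potassium channel subunit, moved most with replicate 1, and their differences went from 1.76 to 1.00 and from 2.66 to 2.00 without it (adjusted p = 0.351 and 0.147).

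Other members called higher at 8c rested on very few counts. Tbx19 had 3 counts in WT and 32 in matPlag1KO, a ratio of 19.1 (counting interval 5.99 to 97.7). Kcng2 had 2 and 13 counts (ratio 11.7, 2.64 to 106) and Cdr2, an antigen of cerebellar degeneration, 3 and 12 (ratio 7.18, 1.94 to 39.6). The actin regulator Wasf3 and the cadherin Pcdh15 had 4 counts each in WT and 22 and 14 in matPlag1KO, and Rspo2, Ccdc186, Zfp68 and AI987944 had 4 to 17 counts in WT and 23 to 40 in matPlag1KO. Such intervals cover counting error only.

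Prdx2, which reduces peroxides, was the member lower at 8c, with 18.7 to 78.8 CPM in WT (median 47.9) against 7.77 to 37.0 in matPlag1KO (median 24.1). The log2 difference was -1.17 ± 0.34 (adjusted p = 0.0477), and the call was lost in 20 of 26 refits, with adjusted p values up to 0.086. Of the Tcl1 genes 1 of 6 had a positive difference at 8c, with a median of -0.29. Tcl1b1 had 0 to 72.7 CPM in WT (median 13.5) against 3.39 to 18.9 in matPlag1KO (median 7.05), a difference of -1.38 ± 0.43 (adjusted p = 0.072). Its highest WT values stood at positions E3 (48.8 and 72.7 CPM) and F3 (41.1 and 44.3 CPM).

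**Figure D5:**
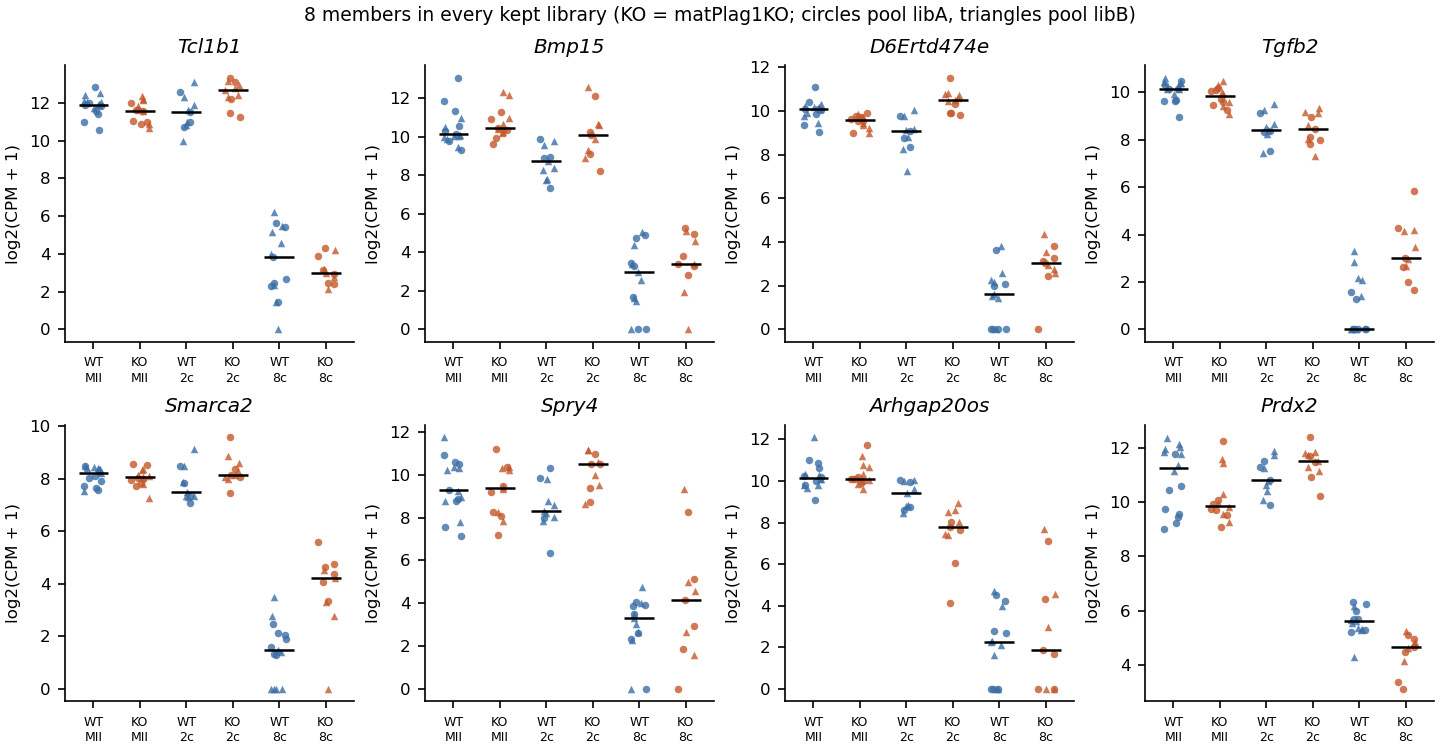
CPM of 8 members in every kept library (log axis), by stage and genotype, with circles for pool libA, triangles for pool libB and a line at the group median. Tgfb2 and Smarca2 stand higher in matPlag1KO than in WT at 8c (medians 7.10 and 17.8 against 0 and 1.75 CPM), while Spry4 and Arhgap20os are raised there in few libraries.

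The genotype difference itself changed between 2c and 8c for 13 members, 9 toward higher at 8c (background 1.13%) and 4 toward lower (background 1.17%). With spike-in totals 4 of the 13 were called (background 0.557%), Arhgap20os and Tgfb2 toward higher and Tcl1b1 and Gm1965 toward lower. The median over members was then 0.06 in place of 0.31, beside -0.21 and -0.09 over all tested genes. Leaving out single libraries moved the 0.31 to between 0.12 (without WT 2c replicate 5) and 0.46 (without WT 8c replicate 3). In pool libA alone no gene of any kind was called, and with positions summed 3 were called (background 0.218%), Arhgap20os, Tgfb2 and Smarca2. Among transcripts higher at 8c were Tgfb2 (change of the log2 difference 2.52 ± 0.53, adjusted p = 0.00432) and Smarca2 (2.12 ± 0.47, adjusted p = 0.00683, and 1.77 with adjusted p = 0.0955 with spike-in totals), which had 2c differences of -0.10 and 0.41. The other way went Tcl1b1 (-2.17 ± 0.56, adjusted p = 0.022), the eIF4E homolog Eif4e1b (-2.62 ± 0.75, adjusted p = 0.0379) and Gm1965 (-2.37 ± 0.64, adjusted p = 0.0258), which the choice of members pulls against. Eif4e1b had 53.0 to 822 CPM in WT 2c embryos (median 316) and 90.6 to 2444 in matPlag1KO (median 1118), and medians of 4.97 and 5.79 CPM at 8c, and its call was lost in 16 of 48 refits that left out a library (highest adjusted p = 0.076) and with spike-in totals (adjusted p = 0.073). Arhgap20os was called at both stages, lower at 2c and higher at 8c, and its difference changed by 3.78 ± 0.72 (adjusted p = 0.00186). Its 8c medians were 3.78 CPM in WT and 2.59 CPM in matPlag1KO, and 2 of the 11 matPlag1KO embryos, replicates 5 and 12 of position F5 (138 and 205 CPM), held 166 of its 187 counts there. Neither single-stage call held with positions summed (adjusted p = 0.114 and 0.178).

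By role, the 8c differences were positive for 16 of 16 transcription and chromatin genes (median 1.196), 16 of 19 secreted factors and receptors (median 1.31) and 10 of 11 meiotic and cell cycle genes (median 0.67). They were positive for 12 of 19 metabolism and transport genes (median 0.61) and for 25 of 37 genes with no role given (median 0.47). For the ubiquitin group the count was 9 of 10 (median 0.69), for signalling 10 of 13 (median 0.84), for neuronal, adhesion and vesicle proteins 11 of 13 (median 1.06) and for RNA binding and translation 5 of 6 (median 0.43). The Tcl1 genes went the other way, with 1 of 6 positive (median -0.29). At 2c the median of every role was positive, from 0.12 to 0.57. The choice of members pulls the 8c values of every role up, and no difference between roles was tested.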

How the data were processed

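RNA-seq libraries of transcript 5′ ends, with ERCC spike-in RNA and an anchored oligo(dT) primer, were made from individual oocytes and embryos. They were multiplexed in the libraries libA and libB, here called pools. Per the labels and the study's methods, the authors joined molecular identifiers, aligned the reads to mm9 with TopHat, counted them in annotated genes through HOMER and deposited raw counts per gene and spike-in without normalization. Versions, and whether counting used strand, are not given in the sources used here, and 26 members overlap another gene model. Gene positions are those of the deposited table (mm9).

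The members, the function lists and the tests were chosen with earlier results of these data known. Libraries with a median CPM under 1 over expressed genes were left out, and the tested genes had 1 CPM or more in 5 or more kept libraries. No pair of libraries within a group was a copy of another (lowest chi-square per degree of freedom 3.54). Counts of the 6 groups were fitted together with the quasi-likelihood test of edgeR 4.0.16 (limma 3.58.1, R 4.3.3), without position or pool terms. A call means an adjusted p under 0.05 (Benjamini-Hochberg over all tested genes). Stage comparisons used spike-in totals and genotype comparisons TMM factors, and DESeq2 1.42.0 was an alternative. The study's methods name TMM and, between stages, library sizes scaled by the spike-in counts. How these were joined is not given in the sources used here, and the spike-in total alone is a choice made here. CPM were computed on gene totals, with 1 added before logarithms. The quasi-likelihood script was tested on simulated data. Python 3.11.15, pandas 2.3.3, scipy 1.17.1 and matplotlib 3.10.9 made the summaries and figures. The counts give 95% intervals that cover counting error only, and depth per library limits every 8c value.

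Positions were checked for pairing across the pools. Deviations from group and pool means over 7972 genes correlated in all 14 oocyte pairs, each of opposite genotypes (r 0.171 to 0.823), and an alternative at MII therefore took the position as replicate block. The 8 pairs at 2c had r of 0.0216 to 0.294 (6 above 0.1, 2 of opposite genotypes), and the 12 pairs at 8c, all of the same genotype, 0.132 to 0.462. On deviations from group means alone, r was above 0.1 in 12 of 14, 4 of 8 and 9 of 12 pairs, with lowest values of -0.055, -0.13 and 0.0305. Libraries of a group in the same position were therefore summed in an alternative chosen after seeing the data.

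The named genes are Plag1, the 12 highest scores, up to 8 members called in each direction of a genotype comparison, up to 4 members of each function list by oocyte level, the ranks around the threshold and members whose fall from 2c to 8c was not called. Gm21319, the members not called between MII and 2c, those called with the replicate block and other examples of the roles were added after their values were seen, and the roles were assigned to the known members by hand. Promoter windows came from RefSeq annotation of GRCm38.p6.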

Additional observations from a re-analysis of the deposited data

Results flagged for a closer look

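For 13 members the genotype difference at 8c differed from that at 2c by a test of the change itself (edgeR interaction term, adjusted p from 0.00186 to 0.0466). Of these, 9 went toward higher at 8c (background 1.13%) and 4 toward lower (background 1.17%). The values below are the log2 difference matPlag1KO minus WT at 8c minus that at 2c. It was 3.78 for Arhgap20os, 2.52 for Tgfb2, 2.43 for Zfp68, 2.42 for Pcdh15, 2.26 for AI987944, 2.12 for Smarca2, 2.05 for Ccdc186, 1.82 for Accsl and 1.66 for Intu. It was -1.58 for Prdx2, -2.17 for Tcl1b1, -2.37 for Gm1965 and -2.62 for Eif4e1b. The choice of members on WT libraries pulls these values up, and the negative ones go against that pull. Arhgap20os, Tgfb2, Smarca2 and Tcl1b1 kept their call in all 48 refits that each left out a 2c or an 8c library, whereas Prdx2 lost it in 33, AI987944 in 30, Ccdc186 in 25, Eif4e1b in 16, Intu in 8, Pcdh15 in 6, Gm1965 in 3 and Accsl and Zfp68 in 1 each. With spike-in totals 4 of the 13 were called (background 0.557%), and with the libraries of a position summed Arhgap20os, Tgfb2 and Smarca2 were (background 0.218%). The Tcl1b genes are paralogs, and how far their reads can be told apart was not measured. Of the other 4 none was called, with -0.54 for Tcl1b3 (adjusted p = 0.723), -0.70 for Tcl1b2 (adjusted p = 0.599), -1.56 for Tcl1b5 (adjusted p = 0.265) and -2.04 for Tcl1b4 (adjusted p = 0.0856). Arhgap20os went from 3.78 to 3.09 without matPlag1KO 8c replicate 12. No refit left out both matPlag1KO 8c libraries of position F5, where Arhgap20os had 138 and 205 CPM beside a group median of 2.59 CPM. Nor did any leave out both WT 8c libraries of position E3 or of position F3. Tcl1b1 had 48.8 and 72.7 CPM at E3 and 41.1 and 44.3 CPM at F3, beside a WT median of 13.5 CPM.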

How the results depend on the processing

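Counts of 8c embryos were few, and in single libraries a count of 0 does not show that a transcript was absent. The values below are numbers of members called, with the percent of all tested genes so called in parentheses. Lower at 2c than MII in matPlag1KO (136) became 55 with TMM (19.3%) and 39 with median-ratio factors (15.1%). Direction turned under TMM for 40 of the 136. Among the 12 highest scores the sign turned, as log2 changes and with C86187 not called by spike-in totals, for Tcl1b3 (0.59), Tcl1b2 (0.35), Tcl1 (0.30), Tcl1b4 (0.70), Tcl1b1 (0.68), C86187 (1.11) and D6Ertd474e (0.65), and under median-ratio factors for Tcl1b3 (0.90), Tcl1b2 (0.66), Tcl1 (0.62), Tcl1b4 (1.01), Tcl1b1 (1.02), C86187 (1.42), Wee2 (0.18) and D6Ertd474e (0.97). Falls from 2c to 8c and from MII to 8c kept their direction and call under each alternative for the 12 highest scores, while the fall of Arhgap20os from 2c to 8c was called under TMM and not with spike-in totals.

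At MII, pool libB alone gave 1 higher (2.42%) and 2 lower (0.633%), and the replicate block of positions with pool as a term 14 higher (3.99%) and 10 lower (0.915%). At 2c, members called higher (4) were 17 with median-ratio factors (4.37%), 13 in DESeq2 (2.37%), 7 with all libraries that held gene and spike-in counts (2.48%), 11 with filterByExpr (4.12%) and 9 in pool libB (0.989%), and 0 in pool libA, where no gene was called. Lower at 2c (1) became 0 with spike-in totals, median-ratio factors, libraries of at least 100000 counts, pool libA and pool libB (0 to 2.32%). At 8c, members called higher (19) were 9 with spike-in totals (0.551%), 2 in pool libA (0.0265%) and 6 in pool libB (0.251%). Lower at 8c (1) became 2 in DESeq2 (0.757%) and 0 with spike-in totals, median-ratio factors, libraries of at least 100000 counts, all libraries, the filter of 1 count, pool libA and pool libB (0.0133 to 0.857%). The change between stages (13) was called for 4 with spike-in totals (0.557%), 4 in pool libB (1.12%) and 0 in pool libA, where no gene was called. The cause was not tested, and a single pool also holds fewer libraries.

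Leaving out each 2c or 8c library in turn, chosen after seeing the data like the fits without the 11 oocytes, gave 3 to 12 higher (1.22 to 3.04%) and 0 to 1 lower (1.46 to 3.79%) at 2c, 13 to 21 higher (0.795 to 1.16%) and 0 to 2 lower (0.255 to 0.752%) at 8c, and 7 to 13 for the change between stages (1.7 to 3.29%). A rule on counts per spike-in count shared 98 of 150 members, and the median 8c difference of its list was 0.28 in place of 0.74. At 2c and 8c a replicate block of positions could not be fitted as a paired term, since most positions held the same genotype in both pools. Summed by position, 2 members were called higher at 2c (0.485%), 6 at 8c (0.133%), 0 lower at either stage (0.751% and 0.0303%), and 3 for the change between stages (0.218%).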
